A study of Mus musculus with 51 samples.

Results

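Mybl1, Crem, Rfx2, Hspa2, Clgn and Zpbp are genes of the male germ line, 3 of them transcription factors of the pachytene and spermatid programme, 2 chaperones and 1 an acrosome protein. They were chosen by name and function, as 6 of 55450 annotated genes (21951 of them protein-coding). For each gene, every region in the count tables that overlapped its promoter or its gene body was read, with promoters taken as 1000 bp up- and downstream of each annotated transcription start site (TSS) in mm10. This gave 14 regions in the table of B6 and KI chromatin accessibility, 13 in that of the Hells mice, 17 for H3K9ac, 14 for H3K4me3, 16 for the F1 alleles and 1 HELLS peak.

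MYBL1 (A-MYB) is the transcription factor that switches on the pachytene programme of meiotic prophase, and RFX2, which binds X-box motifs, acts on genes of the cilium and the spermatid. CREM activates haploid genes in the spermatid, and an internal promoter of the same gene gives ICER, a short repressor. HSPA2 is the HSP70 chaperone of the meiotic spermatocyte, calmegin (CLGN) is a chaperone of the endoplasmic reticulum needed for sperm surface proteins, and ZPBP is an acrosome protein that binds the zona pellucida. PRDM9 is the methyltransferase that binds recombination hotspots and places H3K4me3 there, HELLS is a chromatin remodeller, SPO11 cuts the DNA, and DMC1 is the recombinase loaded on the cut ends. H3K4me3 and H3K9ac also mark active promoters, where they do not depend on PRDM9.

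The series asked how PRDM9 and HELLS open chromatin, and holds 51 samples of mouse male germ cells and testis. Chromatin accessibility was measured by ATAC-seq, in which a transposase cuts open DNA, in germ cells of males at 12 to 14 days post-partum. The tested groups were B6-Prdm9CAST-KI (KI, the CAST allele of Prdm9 on C57BL/6J, n = 2) against C57BL/6J (B6, n = 2), and Hells CKO, a conditional knockout (n = 3), against Hells wt (n = 2). Histone ChIP on cells of that age, after MNase digestion, gave H3K9ac of KI (n = 2), Spo11/Spo11 mutants (n = 1) and B6 (n = 3), and H3K4me3 of Hells CKO (n = 3), Spo11/Spo11 (n = 2), Hells wt (n = 1) and Spo11/+ (n = 1). The (B6xCAST) F1 hybrid, which carries both Prdm9 alleles, gave ATAC (n = 2) and H3K9ac (n = 1) counts for each allele. HELLS ChIP used whole KI testis of that age (n = 2, with 1 IgG control and 1 input). DMC1 ChIP used whole testis of Hells CKO and Hells het males 6 weeks old, and came as 1 peak list per genotype. The labels name no Cre driver for Hells CKO, and they give no number of animals behind a library. The tables hold chromatin and not RNA, and the deleted part of Hells is not given, so they do not check the knockout.

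Total counts in regions ran from 27952728 to 34572929 per library in KI and B6 ATAC, from 6416704 to 11352108 in Hells ATAC, from 13195275 to 30233934 for H3K9ac and from 13321006 to 42007820 for H3K4me3. H3K9ac B6 replicate 2 stood apart from its group. Its median absolute log2 difference over regions was 0.52 to each of the other two B6 libraries, which differed from each other by 0.16, while the 2 KI libraries differed by 0.19. The labels number the KI and B6 libraries in separate series, so strain and library series cannot be told apart. The same holds for H3K9ac of Spo11/Spo11 against B6. For H3K4me3, Spo11/+ and Spo11/Spo11 replicate 1 were numbered in another series than Hells CKO and Hells wt, so genotype and series are partly mixed. Germ cell markers had a promoter region in each of these tables (8 of 8), and so did 7 or 8 of 8 Sertoli cell markers, so the enriched cells also held signal at Sertoli genes. In such bulk samples fewer cells of a type and less signal per cell cannot be told apart.

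Promoter sequence from RefSeq (GRCm38.p6) was at hand for 3 of the 6 genes, Rfx2, Hspa2 and Zpbp, and is shown as 300 bases around the start. Capitals mark matches, on either strand, to the MYB core AACNG, the short cAMP response element TGACG, the X-box arm GTTNCC, the CCAAT box and the GC box GGGCGG. All 3 lie wholly inside a DMC1 peak of Hells CKO testis, which was not why they are shown. They are chr17:56830959-56831258 on the minus strand, chr12:76404120-76404419 on the plus strand and chr11:11462370-11462669 on the minus strand.
Rfx2 promoter: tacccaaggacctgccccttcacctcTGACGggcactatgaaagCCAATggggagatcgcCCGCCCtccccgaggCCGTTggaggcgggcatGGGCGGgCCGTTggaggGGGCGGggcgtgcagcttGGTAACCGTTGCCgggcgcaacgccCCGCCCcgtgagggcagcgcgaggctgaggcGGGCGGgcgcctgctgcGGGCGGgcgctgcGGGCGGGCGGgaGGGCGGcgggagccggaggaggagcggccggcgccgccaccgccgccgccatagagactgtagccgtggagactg
Hspa2 promoter: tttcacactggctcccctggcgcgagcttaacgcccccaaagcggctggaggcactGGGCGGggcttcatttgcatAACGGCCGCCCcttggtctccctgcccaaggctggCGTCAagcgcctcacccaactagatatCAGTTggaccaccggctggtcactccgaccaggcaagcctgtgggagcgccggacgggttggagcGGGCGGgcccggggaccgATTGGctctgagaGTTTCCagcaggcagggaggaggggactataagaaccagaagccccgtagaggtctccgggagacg
Zpbp promoter: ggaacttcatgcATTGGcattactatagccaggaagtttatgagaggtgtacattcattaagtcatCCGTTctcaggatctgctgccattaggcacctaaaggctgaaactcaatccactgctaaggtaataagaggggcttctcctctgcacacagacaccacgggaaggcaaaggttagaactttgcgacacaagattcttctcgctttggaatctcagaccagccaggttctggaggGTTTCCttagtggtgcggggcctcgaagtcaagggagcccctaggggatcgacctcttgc
The Rfx2 promoter is rich in CpG, with 75.7% G and C and 38 CG pairs, against medians of 52.7% and 7 over 32817 promoters. Hspa2 had 65% and 21, and Zpbp had 50% and 7. Rfx2 held 9 GC boxes, 4 MYB cores, 1 short cAMP response element and 1 CCAAT box, and at bases 128 to 133 and 135 to 140 it held 2 X-box arms on opposite strands, with MYB cores overlapping both. Hspa2 held 3 GC boxes, 2 MYB cores, 1 short cAMP response element, 1 X-box arm and 1 CCAAT box, and Zpbp held 1 MYB core, 1 X-box arm and 1 CCAAT box. The full element TGACGTCA, found in 1.79% of promoters, was in none of the 3. A MYB core occurred in 80.3% of promoters of this length, an X-box arm in 45.4%, a CCAAT box in 37.4%, a GC box in 35.6% and a short cAMP response element in 20.8%, so a match here is a description and not a site.

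One more sequence is the middle 200 bases of the one stretch of Mybl1 whose H3K9ac differed between KI and B6, inside an intron (chr1:9689308-9689507, plus strand of the same build, with the same capitals).
Mybl1 intronic site: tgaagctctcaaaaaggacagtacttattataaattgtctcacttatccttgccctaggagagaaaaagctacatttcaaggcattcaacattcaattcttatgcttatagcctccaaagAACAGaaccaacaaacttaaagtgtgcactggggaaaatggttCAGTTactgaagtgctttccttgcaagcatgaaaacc
It had 38% G and C, no CG pair and 2 MYB cores, and so was unlike the 3 promoters in composition.

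The 5′ promoters of all 6 genes were open and carried both histone marks. Levels are CPM, counts scaled to a common library size with edgeR's TMM factors, and levels of different genes are compared per kb of region, averaged over the groups of a table. In the B6 and KI ATAC table the strongest promoter region of Crem had the highest level of the 6, 45.4 CPM per kb, at percentile 95.5 of 15385 genes. Zpbp followed at 41.4, Hspa2 at 35.1, Rfx2 at 34.8, Mybl1 at 31.9 and Clgn at 14.6 CPM per kb. Each of the first 5 overlapped its neighbour in that order over the libraries, while Clgn, at percentile 37.3, was below every library of the other 5 genes. Clgn was also lowest in Hells ATAC (9.75 CPM per kb), in H3K9ac (7.17) and in H3K4me3 (11.4). Hspa2 had the most H3K4me3, 20.99 CPM per kb at percentile 88.8 of 16193 genes, and Crem the most H3K9ac, 14.4 CPM per kb at percentile 87.9 of 16188 genes.

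**Figure D1:**
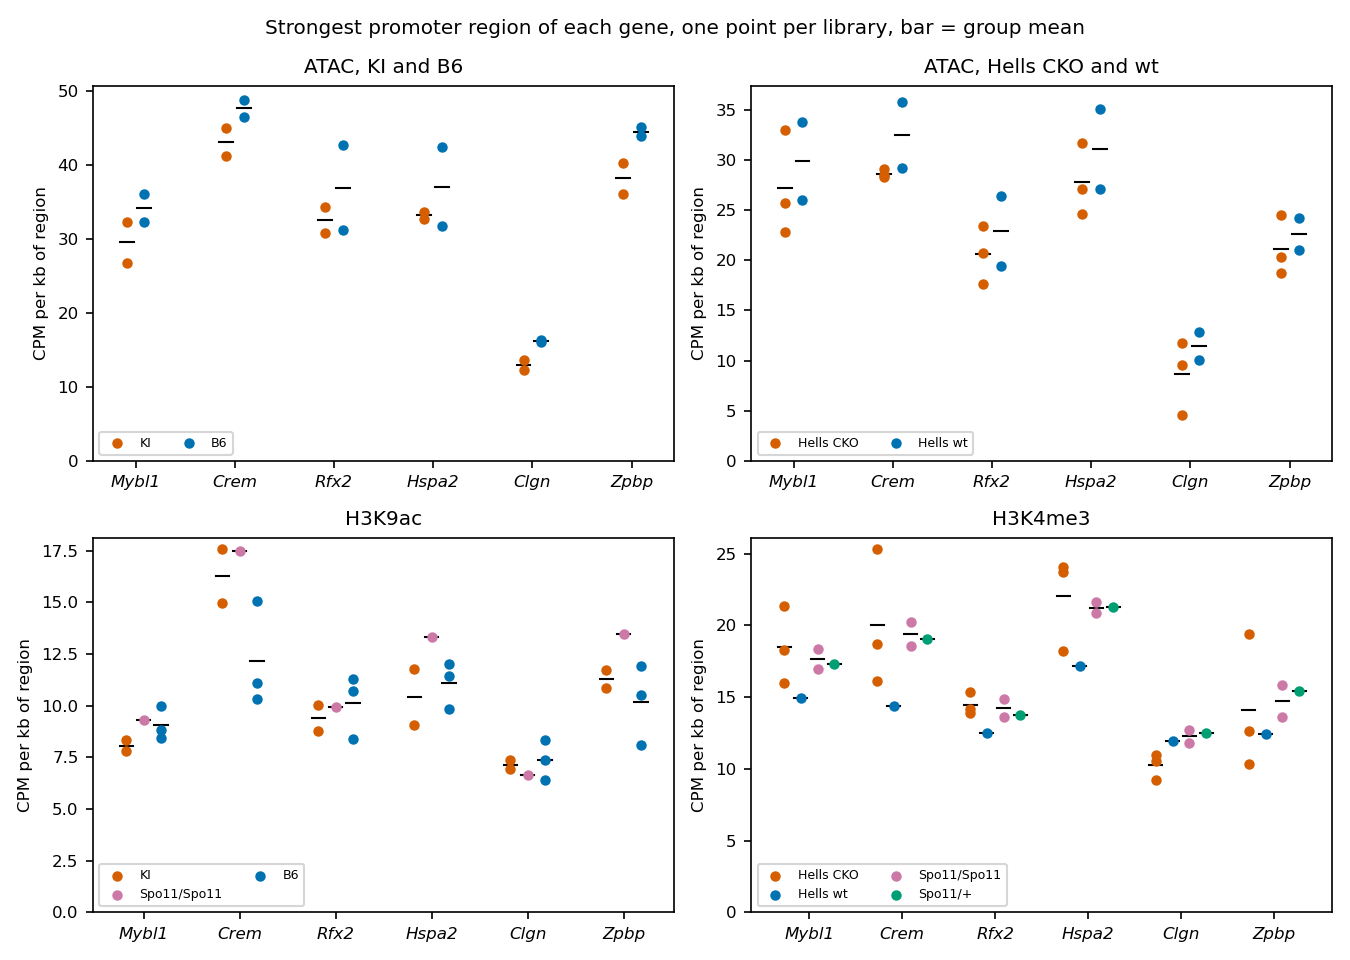
Level of the strongest promoter region of each gene in CPM per kb (vertical axis) in ATAC of KI and B6, ATAC of Hells CKO and Hells wt, H3K9ac and H3K4me3, with 1 point per library and a bar at the group mean. Clgn is lowest in all 4 panels (14.6, 9.75, 7.17 and 11.4 CPM per kb as means over groups), and at these promoters no group difference passed the threshold with all libraries in the fit.

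With all libraries in the fit the 5′ promoters passed no test between mouse groups, and the regions that did pass were 3 sites inside Crem and Mybl1. In ATAC, KI against B6, 1 of 14 regions passed the threshold, a Benjamini-Hochberg adjusted p under 0.05 from edgeR's quasi-likelihood test, against 9.38% of all 81887 regions tested. Without B6 replicate 1 the count was 2, with the Clgn promoter added, and without B6 replicate 2 it was 5, with the promoters of Clgn, Hspa2 and Rfx2 and an Rfx2 gene-body region added, while the whole table went to 18810 and 16739 calls. In H3K9ac, KI against B6, 2 of 17 passed, against 11.7% of all 91909 regions. Without B6 replicate 2, which stood apart, it was 8 of 17, with 52160 calls in the whole table, and without B6 replicate 1, B6 replicate 3, KI replicate 1 or KI replicate 2 it was 0 of 17. Since so many regions passed without B6 replicate 2, the adjusted p-values of that fit, also given below, do not rank differences by strength. In H3K4me3, 1 of 14 passed for Hells CKO against Hells wt, against 11.7% of 78959 regions. The same region passed for Hells CKO against the HELLS-competent groups (Hells wt, Spo11/+ and Spo11/Spo11 with equal weight), against 18.9%. Without Hells CKO replicate 1 or Hells CKO replicate 2 the counts were 2 and 3 against Hells wt and 2 and 2 against the HELLS-competent groups, and without either Spo11/Spo11 library the count against Hells wt was 2. Without Hells CKO replicate 1 or 2 the whole table went from 9211 calls to 11295 and 12364 against Hells wt. Against the HELLS-competent groups it went from 14910 to 31531 and 18275. The added member calls of those fits thus came with more calls in the whole table. Without either Spo11/Spo11 library the whole table had fewer calls against Hells wt than with all libraries. The comparisons with Hells wt and with the HELLS-competent groups share the Hells CKO libraries and the Hells wt library. Counted over promoter regions alone, 1 of 8 passed for ATAC of KI against B6, against 3.35% of all promoter regions, and 1 of 10 for H3K9ac of KI against B6, against 4.89%. For H3K4me3 of Hells CKO it was 1 of 8, against 3.53% for Hells wt and 9% for the HELLS-competent groups.

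In 3 comparisons no region of the 6 genes passed. For ATAC of Hells CKO against Hells wt it was 0 of 13, against 0.373% of 95033 regions, and 0 of 13 reached an unadjusted p of 0.05. For H3K9ac of Spo11/Spo11 against B6 it was 0 of 17 by edgeR, against 0% of all regions, with 0 of 17 at an unadjusted p of 0.05. Over all 91909 regions 3464 reached that unadjusted p, and DESeq2 called 7 regions higher and 9 lower. Without B6 replicate 2 edgeR called 6 of 17, while the whole table went from 0 to 35474 calls. For H3K4me3 of Spo11/Spo11 against Spo11/+ it was 0 of 14, against 0% by edgeR, with 154 of 78959 regions at an unadjusted p of 0.05 and 0 of the 14. DESeq2 called 4 regions higher and 1 lower there.

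Median log2 fold changes of the members stayed near 0. Over the members' promoter regions the median was -0.17 for ATAC of KI against B6 (-0.13 over all promoter regions) and -0.15 for ATAC of Hells CKO against Hells wt (-0.05). It was 0.15 for H3K9ac of KI against B6 (-0.09) and 0.09 for Spo11/Spo11 against B6 (0.05), which share the B6 libraries. For H3K4me3 it was 0.26 for Hells CKO against Hells wt (0.19), 0.13 against the HELLS-competent groups (0.20) and -0.01 for Spo11/Spo11 against Spo11/+ (0.02).

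**Figure D2:**
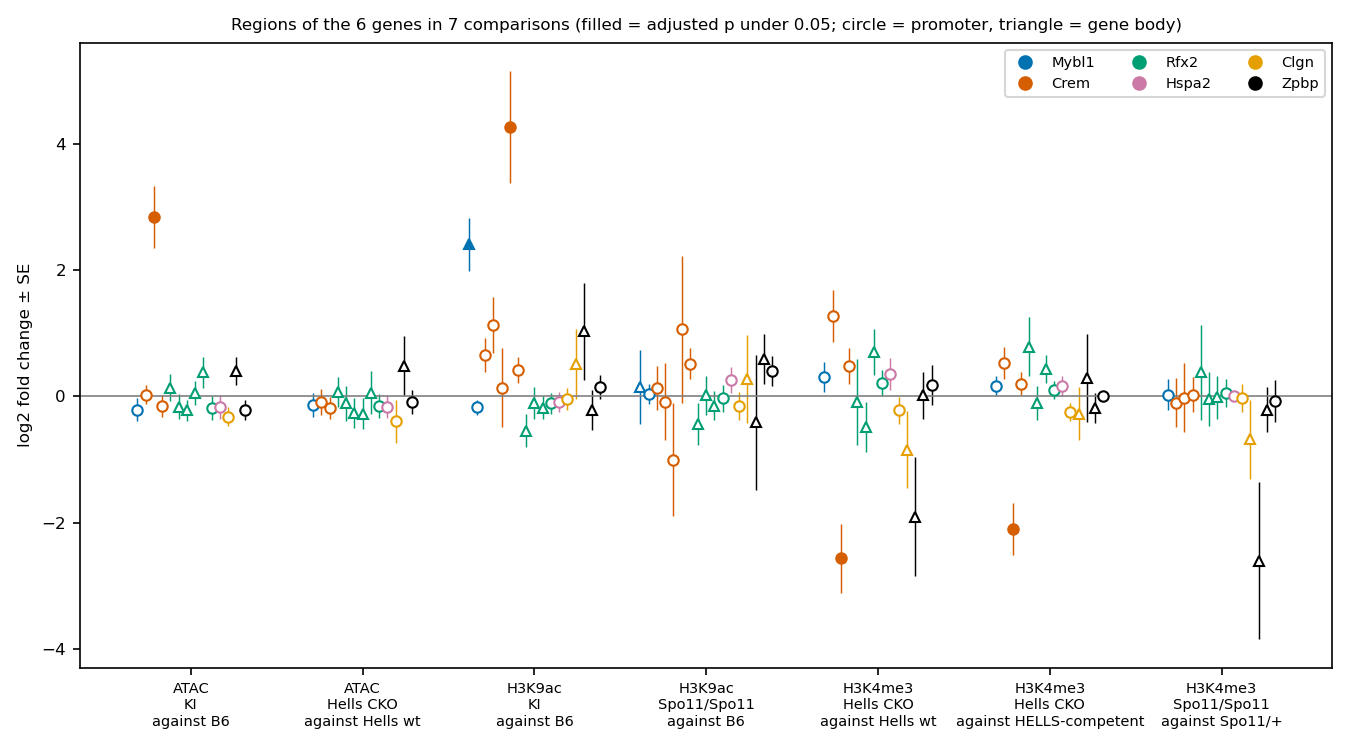
Log2 fold change with its standard error (SE, vertical axis) of every region of the 6 genes in 7 comparisons (horizontal axis), promoters as circles and gene-body regions as triangles, filled where the adjusted p is under 0.05. The filled points are 1 Crem region in ATAC (2.84), 1 Crem and 1 Mybl1 region in H3K9ac of KI against B6 (4.26 and 2.41), and 1 Crem region in both H3K4me3 comparisons of Hells CKO (-2.56 and -2.10).

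Crem (chr18:3266048-3337748, minus strand) has 26 annotated start sites in 6 promoter windows, and all the promoter regions that passed a test between mouse groups were inside it, away from its 5′ end. Crem also held the most promoter regions tested. These were 3 of 8 in ATAC of KI and B6, 5 of 10 for H3K9ac and 3 of 8 for H3K4me3. The first Crem site that passed is an internal window with TSSs at 3309723, 3309858 and 3309900. ATAC of the region at 3308899-3309277, which overlaps no annotated exon, gave 3.80 and 2.95 CPM in KI (106 and 93 reads), against 0.164 and 0.746 CPM in B6 (5 and 26 reads). Both KI libraries were above both B6 libraries, and the difference was called (log2 fold change 2.84, SE 0.49, adjusted p = 0.00117). It was called under all 8 alternatives, with log2 fold changes of 2.18 to 4.30, the extremes being the fits without B6 replicate 1 and without B6 replicate 2.

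H3K9ac at the same place (3307728-3310168, 342 of 2441 bp exonic) gave 21.97 and 25.97 CPM in KI (475 and 429 reads), 2.60 CPM in Spo11/Spo11 (34 reads) and 0.387, 3.15 and 0.555 CPM in B6 (12, 50 and 17 reads). KI lay above every library of the other groups, and the highest B6 value came from replicate 2, the library that stood apart. KI was 4.26 log2 units above B6 (SE 0.89, adjusted p = 0.0417), and Spo11/Spo11, which shares those B6 libraries, differed by 1.06 (SE 1.16), which did not pass. The KI call held without B6 replicate 2 (log2 fold change 5.65), but that fit made 52160 calls in the whole table. It was lost without B6 replicate 1 (adjusted p = 0.0791), B6 replicate 3 (0.145), KI replicate 1 or KI replicate 2, with log2 fold changes of 3.77 to 4.35. Scaling by library size alone also lost the call (4.11, adjusted p = 0.0535). Without B6 replicate 2 Spo11/Spo11 was called too (2.45, adjusted p = 2.9e-09). In the B6 segmentation these TSSs fell in state 11, which covers 43.7% of the genome. No DMC1 peak of either list and no HELLS peak lay there. Both DMC1 lists are of Hells mice and none is of KI, so they cannot show whether KI mice have DMC1 at this site.

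The second Crem site was at 3326602-3327398, beside start sites at 3327507 and 3327591, and carried little H3K4me3. It gave 0.249, 0.568 and 0.403 CPM in Hells CKO (8, 11 and 11 reads), 1.495 and 1.392 CPM in Spo11/Spo11 (51 and 60 reads), 2.34 CPM in Hells wt (33 reads) and 1.46 CPM in Spo11/+ (44 reads). All 3 Hells CKO libraries were below all 4 others. Hells CKO was below Hells wt by a log2 fold change of -2.56 (SE 0.55, adjusted p = 0.00915) and below the HELLS-competent groups by -2.10 (SE 0.41, adjusted p = 0.00281). Between Spo11/Spo11 and Spo11/+ it differed by -0.02 (SE 0.55), which did not pass. The site was wholly in state 7, which covers 0.562% of the genome but held the centres of 6.43% of the Hells CKO and 67.5% of the Hells het DMC1 peaks. No peak of either DMC1 list overlapped it, and no ATAC or H3K9ac region was listed there.

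**Figure D3:**
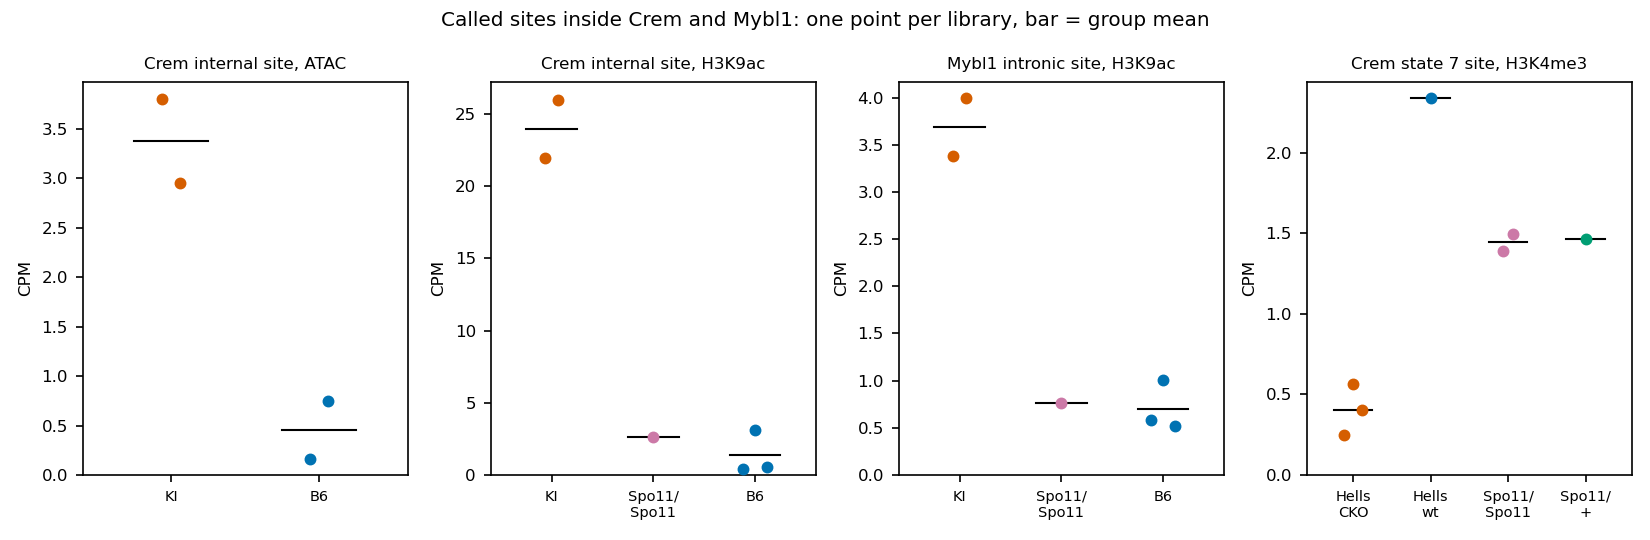
CPM (vertical axis) of the called sites by group, 1 point per library and a bar at the group mean, for Crem ATAC, Crem H3K9ac, Mybl1 intronic H3K9ac and Crem H3K4me3. KI lies above B6 in the first 3 panels without overlap, and Hells CKO lies below Hells wt, Spo11/Spo11 and Spo11/+ in the last.

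The other Crem promoters did not pass. Its 5′ promoter region overlaps the promoter of Gm6225, a processed transcript, so the values there belong to both. The 5′ promoter had ATAC of 113 and 104 CPM in KI against 123 and 117 CPM in B6 (log2 fold change -0.15, SE 0.17), and 66.4, 64.9 and 64.5 CPM in Hells CKO against 81.7 and 66.5 CPM in Hells wt (-0.18, SE 0.17). Its H3K9ac was 74.9 and 63.8 CPM in KI, 74.5 CPM in Spo11/Spo11 and 47.4, 64.2 and 44.0 CPM in B6, and KI overlapped B6. Without B6 replicate 2 its H3K9ac was called in KI (0.60, adjusted p = 7.91e-05) and in Spo11/Spo11 (0.70, adjusted p = 0.000335). H3K4me3 there was 90.2, 57.4 and 66.6 CPM in Hells CKO against 51.2 CPM in Hells wt (0.48, SE 0.28). An inner promoter with TSSs at 3281078 to 3281769 had H3K9ac of 45.1 and 43.9 CPM in KI, 30.9 CPM in Spo11/Spo11 and 23.7, 38.7 and 22.3 CPM in B6, where the groups did not overlap but the test did not pass (0.66, SE 0.27, adjusted p = 0.233), except without B6 replicate 2 (0.95, adjusted p = 1.04e-11). Its H3K4me3 was 44.9, 18.8 and 28.5 CPM in Hells CKO against 12.8 CPM in Hells wt (1.27, SE 0.41, adjusted p = 0.0821), and 24.7 and 28.6 CPM in Spo11/Spo11 against 28.6 CPM in Spo11/+. The single Hells wt library was thus the lowest of the 7. This difference was called by DESeq2 and without Hells CKO replicate 1, Hells CKO replicate 2 or either Spo11/Spo11 library, with log2 fold changes of 0.89 to 1.56 in those 5 fits. The weak H3K9ac regions at 3299421-3300252 (1.13, SE 0.45) and 3300490-3301157 (0.14, SE 0.63) did not pass for KI against B6, and without B6 replicate 2 the first of them did (1.47, adjusted p = 4.71e-07).

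Mybl1 (chr1:9667415-9700209, minus strand) differed in an intron and not at its promoter. The H3K9ac region at 9688963-9689852, which overlaps no annotated exon, gave 3.377 and 3.996 CPM in KI (73 and 66 reads), 0.764 CPM in Spo11/Spo11 (10 reads) and 0.581, 1.01 and 0.522 CPM in B6 (18, 16 and 16 reads). Both KI libraries were above the rest, and KI was 2.41 log2 units above B6 (SE 0.42, adjusted p = 0.0246). The call held without B6 replicate 2 (2.72), in the fit with 52160 calls in the whole table. It was lost without B6 replicate 1 (adjusted p = 0.0745), B6 replicate 3 (0.0959), KI replicate 1 (0.159) or KI replicate 2 (0.276), with log2 fold changes of 2.23 to 2.51. The site lay in state 6, which took up 79.2% of the gene body, and no DMC1 or HELLS peak overlapped it. Here too the DMC1 lists do not cover KI mice.

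At the Mybl1 promoter ATAC was 159 and 132 CPM in KI against 177 and 159 CPM in B6 (log2 fold change -0.21, SE 0.18), and 82.5, 64.2 and 56.99 CPM in Hells CKO against 84.3 and 65.1 CPM in Hells wt (-0.13, SE 0.19). H3K9ac was 46.1 and 43.2 CPM in KI, 51.6 CPM in Spo11/Spo11 and 55.3, 46.9 and 48.8 CPM in B6, a KI difference of -0.17 (SE 0.12). H3K4me3 was 82.2, 61.6 and 70.5 CPM in Hells CKO against 57.5 CPM in Hells wt (0.31, SE 0.24). None of these passed.

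Rfx2 (chr17:56775897-56831013, minus strand) had the most gene-body regions, 5 in each ATAC table and 3 for each histone mark, and none passed between mouse groups with all libraries in the fit. Its promoter ATAC was 110 and 98.6 CPM in KI against 137 and 99.8 CPM in B6 (log2 fold change -0.18, SE 0.19, called at -0.42 without B6 replicate 2, adjusted p = 0.0163), and 68.97, 61 and 51.8 CPM in Hells CKO against 77.6 and 57.1 CPM in Hells wt (-0.15, SE 0.19). Promoter H3K9ac was 47.1 and 41.1 CPM in KI, 46.6 CPM in Spo11/Spo11 and 53.1, 39.5 and 50.2 CPM in B6. Promoter H3K4me3 was 56.01, 50.8 and 51.7 CPM in Hells CKO against 45.7 CPM in Hells wt (0.21, SE 0.21). The widest gene-body region in H3K9ac (56803722-56807619) gave 11.4 and 10.8 CPM in KI, 11.9 CPM in Spo11/Spo11 and 16.1, 12.2 and 20.2 CPM in B6. KI was below each B6 library, but the difference did not pass (-0.54, SE 0.26, adjusted p = 0.274), except without B6 replicate 2 (-0.70, adjusted p = 5.07e-08).

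Hspa2 (chr12:76404176-76406938, plus strand) is a short gene whose promoter region covers most of it, and that region overlaps the promoter of the noncoding gene 4930426I24Rik. ATAC was 124 and 120 CPM in KI against 156 and 117 CPM in B6 (log2 fold change -0.16, SE 0.19, called at -0.38 without B6 replicate 2, adjusted p = 0.0396), and 98.3, 84.0 and 76.3 CPM in Hells CKO against 109 and 84.0 CPM in Hells wt (-0.16, SE 0.18). The 2 groups overlapped in each pair. H3K9ac was 67.9 and 52.3 CPM in KI, 76.7 CPM in Spo11/Spo11 and 69.2, 56.5 and 65.8 CPM in B6. H3K4me3 was 118, 89.5 and 117 CPM in Hells CKO against 84.2 CPM in Hells wt (0.36, SE 0.25). Neither mark passed, except H3K4me3 without Hells CKO replicate 2 (0.52, adjusted p = 0.0499).

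Clgn (chr8:83389867-83428552, plus strand) had the weakest promoter of the 6. Its ATAC was 18.9 and 17.1 CPM in KI against 22.3 and 22.7 CPM in B6, without overlap, but the difference did not pass (log2 fold change -0.32, SE 0.15, adjusted p = 0.386), except without B6 replicate 1 (-0.33, adjusted p = 0.0347) or B6 replicate 2 (-0.34, adjusted p = 0.0381). In Hells CKO it was 13.0, 10.5 and 5.08 CPM against 14.1 and 11.0 CPM in Hells wt (-0.39, SE 0.34). H3K9ac was 19.9 and 21.01 CPM in KI, 18.96 CPM in Spo11/Spo11 and 21, 23.8 and 18.2 CPM in B6. Its one H3K9ac gene-body region (83426192-83427108) gave 3.52 and 3.09 CPM in KI, 2.83 CPM in Spo11/Spo11 and 1.42, 4.16 and 1.53 CPM in B6, and it passed for KI only without B6 replicate 2 (1.16, adjusted p = 6.64e-06), as it did for Spo11/Spo11 (0.94, adjusted p = 0.0152). H3K4me3 was 23.0, 23.9 and 20.1 CPM in Hells CKO, 25.7 and 27.8 CPM in Spo11/Spo11, 26.0 CPM in Hells wt and 27.2 CPM in Spo11/+. Each Hells CKO library was below every other library here, and the difference from Hells wt did not pass (log2 fold change -0.22, SE 0.21, against 0.18 to 0.48 at the other 5 genes' 5′ promoters).

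Zpbp (chr11:11279626-11462408, minus strand) shares its promoter window with Spata48, so the values belong to both. ATAC was 84.0 and 75.3 CPM in KI against 91.4 and 93.9 CPM in B6 (log2 fold change -0.22, SE 0.16, not passed though the groups did not overlap). It was 34.1, 28.3 and 26.1 CPM in Hells CKO against 33.7 and 29.3 CPM in Hells wt (-0.09, SE 0.19). H3K9ac was 33.1 and 35.8 CPM in KI, 41.1 CPM in Spo11/Spo11 and 32.2, 36.4 and 24.8 CPM in B6, and without B6 replicate 2 Spo11/Spo11 was called higher (0.53, adjusted p = 0.0055). The gene-body region with the highest mean H3K9ac (11370010-11370806) gave 1.99 and 5.57 CPM in KI, 1.38 CPM in Spo11/Spo11 and 0.645, 3.21 and 1.76 CPM in B6, and it too passed for KI only without B6 replicate 2 (1.61, adjusted p = 0.00722). H3K4me3 was 54.6, 35.5 and 29.0 CPM in Hells CKO against 35.0 CPM in Hells wt (0.18, SE 0.32), and the Hells CKO libraries spread to both sides of Hells wt.

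DMC1 marked the 5′ promoters of all 6 genes in Hells CKO testis and of 2 in Hells het testis. A peak of the Hells CKO list overlapped the promoter of 6 of 6 genes, against 40.2% of 21924 protein-coding genes, and a peak of the Hells het list that of Mybl1 and Crem, 2 of 6 against 7.72%. Among the 16193 genes with an H3K4me3 region at the promoter, the kind all 6 genes are, the shares were 52.8% and 10.1%. With 1 list per genotype these shares carry no replicate error. The 2 lists were of like size, with 14692 peaks in the Hells CKO list and 15831 in the Hells het list.

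The Hells CKO peaks were broad and lay on the 5′ end itself. They were 4577 bp long at Mybl1, 4413 bp at Hspa2, 3738 bp at Zpbp, 3313 bp at Crem, 2240 bp at Rfx2 and 1941 bp at Clgn, where the median of the list was 1924 bp. From the nearest TSS their centres lay 14 bp away at Zpbp, -86 bp at Mybl1, -193 bp at Crem, 219 bp at Hspa2, -331 bp at Clgn and 660 bp at Rfx2, where a negative distance is before the TSS. In the Hells het list Mybl1 had 2 promoter peaks (9698926-9700484 and 9700542-9701804) and 1 in the gene body (9673071-9674677), and Crem had 1 (3335915-3337384), all inside or near the wider Hells CKO peak except the gene-body one. The nearest Hells het peak to the 5′ end was 6.32 kb away for Clgn, 11.1 kb for Hspa2, 23.9 kb for Zpbp and 143 kb for Rfx2.

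**Figure D4:**
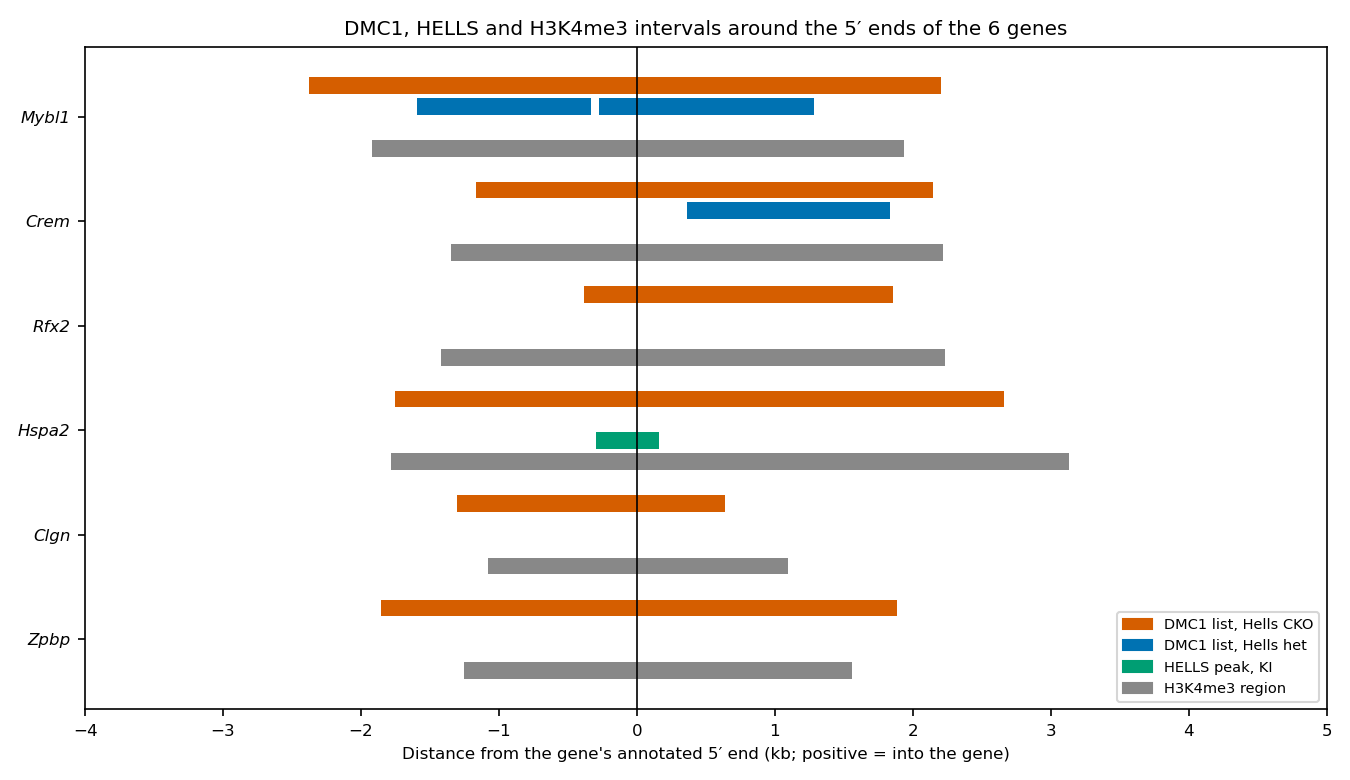
Intervals of the Hells CKO and Hells het DMC1 lists, the HELLS peaks of KI testis and the H3K4me3 regions around the annotated 5′ end of each gene, drawn by distance in kb (horizontal axis, positive into the gene). A Hells CKO DMC1 interval covers the 5′ end of each of the 6 genes, Hells het intervals appear at Mybl1 and Crem, and the one HELLS interval is at Hspa2.

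The share of promoters with a Hells CKO peak went up with H3K4me3. The 16193 genes were put in 4 bins of near equal size by the H3K4me3 level of their strongest promoter region in CPM per kb, over the libraries other than Hells CKO, a scale chosen after the data were seen. From low to high, 12.9%, 43.3%, 70.2% and 85% had a Hells CKO peak and 6.35%, 10.6%, 10.3% and 13% a Hells het peak. Clgn was in bin 2, Mybl1, Rfx2 and Zpbp in bin 3, and Crem and Hspa2 in bin 4. By CPM not divided by length the Hells CKO shares were 14.6%, 44.5%, 70.5% and 81.7%, with Mybl1 in bin 4 and the other 5 genes as before. The peak at Clgn was the shortest of the 6 and its H3K4me3 the lowest. In the chromatin states all 6 5′ promoters lay mostly in state 1, with 69.6% of the window at Clgn and Zpbp and 89.4% at Crem. The annotated 5′ ends themselves lay in state 1 at Mybl1, Crem, Clgn and Zpbp and in state 2, with 27.1% of annotated 5′ ends, at Hspa2 and Rfx2. State 1 covers 1.60% of the genome and 38.9% of annotated 5′ ends, and it held 63.5% of the Hells CKO and 7.23% of the Hells het DMC1 centres.

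Of the 6 genes 1, Hspa2, had a HELLS peak at its promoter, against 6.72% of protein-coding genes. The peak (chr12:76403878-76404336) covered 217 of the 300 bases of the Hspa2 promoter shown above. It held 43 and 41 HELLS ChIP reads, 4 IgG reads and 10 input reads, and ranked 2078 of 2675 peaks by HELLS count, below the median of 54.5 reads. Of all HELLS peaks 48.7% were at promoters. The control counts stem from 1 library each, and the library totals are known only over the HELLS peaks themselves, so the ratio was not tested.

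In the F1 hybrid the alleles are compared inside the same cells. Of 15 regions with at least 20 allele counts 2 passed (edgeR with the library as a block), against 16.2% of 70654 regions. At the Crem 5′ promoter (3335792-3338980), shared with Gm6225, the B6 allele had 327 and 268 ATAC reads, against 264 and 215 reads for the CAST allele. The B6 allele was thus higher in both libraries (log2 fold change 0.31, SE 0.11, adjusted p = 0.0390). In Clgn a region at 83426196-83427371, of whose 1176 bp 846 are exonic, had 14 and 16 reads of the B6 allele against 31 and 42 reads of the CAST allele (-1.27, SE 0.39, adjusted p = 0.00936). H3K9ac there gave 20 reads of the B6 allele against 54 of the CAST allele, a B6 share of 27% (exact 95% binomial interval 17.4 to 38.6%, counting error only). With DESeq2 neither ATAC difference passed (adjusted p = 0.916 and 0.615), and with TMM scaling Crem did not (0.0683).

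The sites that differed between KI and B6 did not pass between the alleles of the F1. KI and B6 differ in the Prdm9 allele. In the F1, which carries both Prdm9 alleles, B6 and CAST sequence were compared inside the same cells. The allele comparison therefore cannot show whether the difference between KI and B6 holds. At the internal Crem window (3307647-3310178) the B6 allele had 19 and 15 ATAC reads against 30 and 16 of the CAST allele (log2 fold change -0.41, SE 0.43), and 26 against 24 H3K9ac reads. At the Mybl1 intronic site each allele had 6 ATAC reads in each library, and H3K9ac gave 13 reads of the B6 allele against 10 of the CAST allele. These depths cannot show a moderate difference, since the interval of that last share runs from 34.5 to 76.8%. At the Zpbp promoter the B6 allele had 368 and 428 reads against 311 and 363 of the CAST allele, which did not pass (0.24, SE 0.10, adjusted p = 0.0809). The members' median H3K9ac share of the B6 allele was 51.8% over 14 regions, from 27 to 60.3%, against 51.1% over all regions. A Zpbp gene-body region held no allele read in any library and was not tested.

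**Figure D5:**
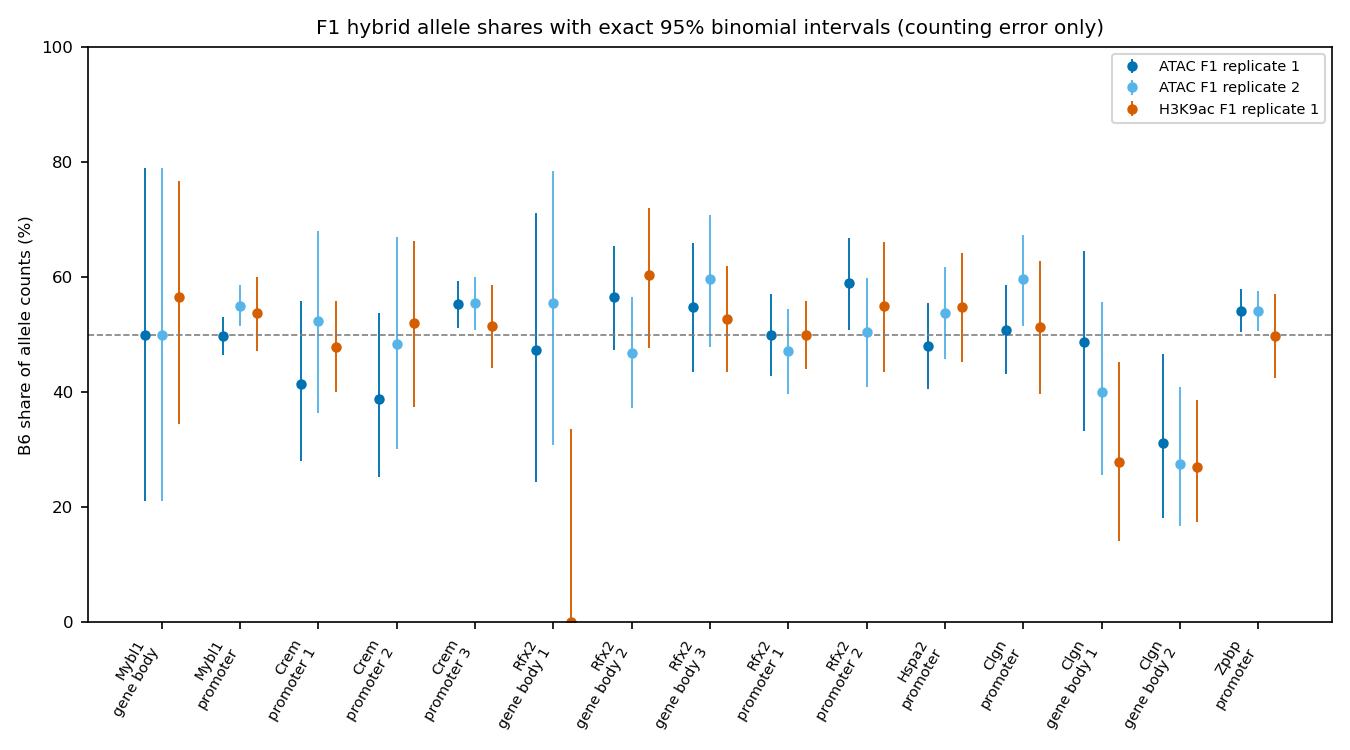
Share of allele counts from the B6 allele in % (vertical axis) at each region of the 6 genes in the F1, for 2 ATAC libraries and 1 H3K9ac library, with exact 95% binomial intervals that cover counting error only. The second Clgn gene-body region lies lowest in all 3 libraries among regions with at least 20 counts in each (31.1, 27.6 and 27%).

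Around the 6 genes, 75 genes in 6 lists of relatives, partners and targets were read at their promoters. In ATAC of KI against B6, 0 of 61 genes with a region passed, and in ATAC of Hells CKO against Hells wt 0 of 58. In H3K9ac of KI against B6, 2 of 64 were higher and 0 lower, against 4.72% of promoter regions higher. They were Mybl2, the MYB protein of dividing cells (log2 fold change 4.82, SE 0.68, adjusted p = 0.0156), and Pdilt, a testis disulfide isomerase homologue that works with calmegin (4.50, SE 0.55, adjusted p = 0.0117). In H3K4me3 of Hells CKO, Pick1, needed to form the acrosome, was lower than in Hells wt (-2.65, SE 0.67, adjusted p = 0.0241), 1 of 63 genes against 3.49% of promoter regions lower. Pick1 (-2.40) and Piwil1, the pachytene piRNA protein and a MYBL1 target (-1.86), were lower than in the HELLS-competent groups, 2 of 63 against 5.12%. The Spo11/Spo11 comparisons called 0 of 64 for H3K9ac and 0 of 63 for H3K4me3. Medians over the lists' regions lay between -0.12 and 0.20 in all 7.

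In the F1, 7 of 58 genes of these lists were higher on the B6 allele and 2 lower, against 9.34% of promoter regions higher and 4.67% lower. Ccnb3 (5.80) and Taf7l (4.70) are X-linked, and a male has a single X. Mybl2 (2.60), Spag6l (0.63), Wdr63 (0.36), Hspa4l (0.35) and Hsp90aa1 (0.23) were higher, and Pla2g6 (-0.47) and Spata16 (-6.34) lower, all as log2 fold changes. A DMC1 peak of the Hells CKO list lay at 33 of the 75 promoters (44%), one of the Hells het list at 4 (5.33%) and a HELLS peak at 8 (10.7%). Over all protein-coding genes these shares were 40.2%, 7.72% and 6.72%, which also stand beside the marker counts that follow. The Hells het ones were Ccnb3, Taf7l, Acrbp and Pick1. The Hells CKO peaks were at 7 of 8 germ cell markers, 0 of 8 Sertoli cell markers and 1 of 7 peritubular, stromal and endothelial markers. The Hells het peaks were at 2 of 8 germ cell markers (Ddx4 and Rnf17), 0 of 8 Sertoli cell markers and 4 of 7 peritubular, stromal and endothelial markers (Acta2, Pecam1, Vwf and Dcn).

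Markers of other cells moved with some of these groups. H3K4me3 summed over the 8 Sertoli cell marker promoters was 91.1, 67.7 and 102 CPM per kb in Hells CKO, 59.0 and 62.6 in Spo11/Spo11, 61.02 in Hells wt and 51.2 in Spo11/+, so Hells CKO lay above all others. Of the 8 markers 5 were higher in Hells CKO than in the HELLS-competent groups (Inha, Sox9, Gata4, Clu and Cldn11, log2 fold changes 0.51 to 0.74), against 3.88% of all promoter regions. Against Hells wt 0 of 8 were higher, but only 0.0403% of all promoter regions were, so that count tells little. The germ cell marker sum was 89.6, 71.7 and 58.5 CPM per kb in Hells CKO, 88.2 and 89.3 in Spo11/Spo11, 70.8 in Hells wt and 95.5 in Spo11/+. For H3K9ac the germ cell sum was 72.8 and 74.9 in KI, 80.5 in Spo11/Spo11 and 53.6, 64.5 and 50.8 in B6, and the Sertoli sum was 74.01 and 55 in KI, 67.7 in Spo11/Spo11 and 79.6, 59.9 and 73.3 in B6. KI was thus above B6 in the H3K9ac germ cell sum and overlapped it in the Sertoli sum. In ATAC the germ cell sum was 170.1, 118.7 and 89.08 in Hells CKO against 188.4 and 121.0 in Hells wt. It was 178.9 and 164.4 in KI against 219.4 and 160.5 in B6, and the groups overlapped in each pair. The ATAC Sertoli sum, over 7 of 8 markers, overlapped too. It was 116.8, 99.26 and 117.2 in Hells CKO against 114.3 and 100.7 in Hells wt, and 88.21 and 83.65 in KI against 101.3 and 80.32 in B6. Among the 8 germ cell markers Rnf17, whose promoter holds a Hells het DMC1 peak, was lower in Hells CKO H3K4me3, by -2.25 against Hells wt and -2.98 against the HELLS-competent groups. The blood marker Ptprc was also higher in KI H3K9ac (4.75, adjusted p = 0.0450), 1 of 2 blood markers with a region, and the endothelial marker Vwf, whose promoter also holds such a peak, was lower in KI ATAC (-1.32) and in Hells CKO H3K4me3 against Hells wt (-3.29). It was 1 of 4 peritubular, stromal and endothelial markers with a region in that ATAC table and 1 of 7 in the H3K4me3 table. No blood marker had a region in KI and B6 ATAC (0 of 5). The part of cell composition in the Crem and Mybl1 results was not tested.

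The promoters most like each member over the 11 group means of ATAC, H3K9ac and H3K4me3, by Euclidean distance of log2(CPM per kb + 0.1) among 14642 genes, were Kif23 (0.287) for Mybl1, Serbp1 (0.1796) for Crem, Acsl3 and Utp14b (0.240, the same region) for Rfx2, Phactr4 (0.230) for Hspa2, Isl2 (0.526) for Clgn and, after Spata48 with its shared region, Dnajc27 (0.242) for Zpbp. The members were less like each other than that. The closest pair was Rfx2 and Zpbp at 0.645, and Clgn was 2.58 to 4.02 away from the other 5.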

How the data were processed

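ATAC-seq, H3K9ac, H3K4me3, HELLS and DMC1 profiles of mouse germ cells and testis were read at 6 genes. The deposited tables of ATAC, H3K9ac, H3K4me3 and HELLS hold raw read counts per region. For the F1 the authors deposited estimated counts per allele, which were whole already (0 of 485352 values were not) and so were unchanged by rounding. The deposited DMC1 lists hold positions only, and a deposited segmentation of 11 states was made from histone ChIP of B6. CASAVA, BWA 0.7.15, Bowtie 0.12.9, MACS 1.4.2 and mm10 are named in the submitters' processing notes; which tool made which file is not given in the sources used here. Genes are GENCODE M21, and region ends fit the chromosome lengths of GRCm38. There were 10 value columns that matched no sample, which were left aside, and 56 repeated rows of the Hells ATAC table were dropped. ATAC columns of B6 and KI name the strain and not the sample, so replicate numbers only name columns and pair nothing. ATAC of DBA/2J and of Spo11 mice was not analysed here.

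Counts were tested over each whole table with edgeR 4.0.16 in R 4.3.3 (quasi-likelihood F test, TMM, filterByExpr, Benjamini-Hochberg, threshold 0.05), after tests on simulated data. The SE is the log2 fold change divided by the root of F. The H3K9ac and H3K4me3 fits held all their groups, and where a group had 1 library its spread was taken from the rest. F1 alleles were compared within each library (a block term), where a region had 20 allele counts or more, without TMM. Overlap meant at least 1 bp. Alternatives were DESeq2 1.42.0, RLE factors, library size alone, no filter, other minimums, windows of 500 bp, overlaps of 100 bp and leaving out each library. Nothing in the labels ties replicates to separate animals, and the p-values then reflect only how far these libraries spread, which may be technical. Low counts limit the F1 and HELLS values most, with 3125377 to 5003968 counts per allele over the F1 regions. The HELLS table held 27308 to 185076 counts per library, summed over its peaks alone, which does not give sequencing depth.

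The rule for naming took regions at promoters, and gene-body regions where they passed a test, held a peak or were the highest of their gene; of the last kind only some are given. List genes were named where they passed. The 6 genes and 11 lists with 108 genes were chosen with earlier results of these data known. Figures were drawn with matplotlib 3.10.9.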

Additional observations from a re-analysis of the deposited data

How the results depend on the processing

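Of the results on single regions under all alternatives, 1032 counted as unchanged, 25 passed only under the alternative, 12 no longer passed, 4 moved and 2 reversed. Unchanged meant the same sign and side of the threshold or, where a fit gave no test, a value within the SE. A sign change also counted as unchanged where both values were uncalled and the main one was smaller than its SE. An example is the Hspa2 promoter in ATAC of KI against B6, at -0.16 and at 0.07 without B6 replicate 1. The 2 reversals are thus not all the changes of sign. The count of called regions of the 6 genes ran from 1 to 5 for ATAC of KI against B6 when 1 library was left out (main value 1), from 0 to 8 for H3K9ac of KI against B6 (2), from 0 to 6 for H3K9ac of Spo11/Spo11 against B6 (0), from 1 to 3 for H3K4me3 of Hells CKO against Hells wt (1) and from 1 to 2 against the HELLS-competent groups (1). Scaling by library size alone gave 1 for H3K9ac of KI against B6, DESeq2 gave 2 for H3K4me3 of Hells CKO against Hells wt and 0 for the F1 (2), and TMM factors gave 1 for the F1. The other counts were the same under every alternative run, as were the DMC1, HELLS and state results with 500 bp windows or 100 bp overlap. The Crem H3K4me3 site was called in every fit that gave a test, with values over all alternatives of -2.80 to -2.00 against Hells wt and -2.35 to -1.83 against the HELLS-competent groups. The 2 reversals were uncalled: Rfx2 ATAC at 56809812-56811417 in Hells CKO against Hells wt (-0.52 to 0.03 as libraries were left out) and Crem H3K4me3 at 3335532-3339094 against the HELLS-competent groups (-0.002 to 0.37). Whole-table counts moved more: 354 calls in Hells ATAC became 1217 with neighbouring library numbers as a block, 645 without Hells CKO replicate 1, 126 without Hells wt replicate 1 and 0 without Hells CKO replicate 3. For H3K9ac of KI against B6, 10742 became 5696 without B6 replicate 1. For H3K4me3 against the HELLS-competent groups, 14910 became 31531 without Hells CKO replicate 1. For the F1, 11429 became 3172 with DESeq2. For Spo11/Spo11 against B6, 0 became 35474 without B6 replicate 2. The causes were not tested. Hells wt has 1 H3K4me3 library, so leaving it out gave no value for that comparison. By replicate number, no paired analysis was possible because these numbers follow accession or column order and pair nothing. For Hells ATAC a block of neighbouring library numbers was fitted instead, and it called 0 of 13 member regions. Depth limits the Crem H3K4me3 site (8 to 60 reads) and the Mybl1 site in the F1.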
